A study of Mus musculus with 3 samples.

Results

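Mertk, Cd163, Aif1 and Axl, genes of macrophages that clear dying cells and scavenge their contents, were followed in bone marrow RNA of castrated mice given testosterone and of matched castrated mice given placebo. Every array spot was taken whose annotation gives exactly 1 gene, that gene being a member of these 4, and which had a value on all 3 arrays. This gave 5 spots for 4 genes, 1 spot each for Mertk, Cd163 and Axl and 2 for Aif1, out of 6039 spots and 3462 genes tested. No other spot annotated with exactly 1 gene carried these genes, so none of that kind was lost to missing values. The 672 spots annotated with several genes were not searched for them. The testosterone mice were C57BL/6 mice castrated at 7 weeks of age that carried a 12.5 mg pellet, made to release over 60 days, for 4 weeks. The placebo mice were castrated C57BL/6 mice that carried placebo pellets for the same time, and both were 17 weeks old. Each of the arrays T1, T2 and T3 set 1 testosterone mouse against its placebo partner (n = 3 pairs), with testosterone in Cy5 on T1 and T3 and in Cy3 on T2. The RNA came from pulverized long bones while the labels name the tissue as bone marrow, so the extract could hold any cell of marrow or bone.

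Each value is read as a log2 ratio of testosterone to placebo. Log base and direction are inferred, not stated, and positive is taken as higher with testosterone because the study names that as its experimental channel. A ratio carries no level, so whether macrophage transcripts were abundant or scarce in this marrow could not be checked, and levels of different genes cannot be ranked. In RNA from a whole tissue, more cells of a type and more RNA per cell cannot be told apart.

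Clearance of dying cells by phagocytes is called efferocytosis. Mertk and Axl are receptor tyrosine kinases of the TAM family (Tyro3, Axl, Mertk), which bind the bridging proteins Gas6 and protein S on exposed phosphatidylserine, and Mertk is the member best known for engulfment by resident macrophages. Cd163 is a scavenger receptor that takes up complexes of hemoglobin and haptoglobin. Aif1, also called Iba1, is a calcium-binding, actin-bundling protein used as a macrophage and microglia marker, with a role in membrane ruffling during phagocytosis. In bone marrow, such macrophages sit at the centre of erythroblastic islands, where they engulf the nuclei that maturing red cells expel. Axl is also expressed by stromal and endothelial cells.

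The 4 genes lie on different chromosomes, and their promoters are shown to let a reader see that they are unlike in composition. Each window covers 250 bases before and 50 bases after an annotated transcript start, 5′ to 3′ along the gene, from RefSeq on GRCm38.p6, where all 4 genes were matched. Capitals mark a match to AGAACA, the half-site that androgen receptor shares with related steroid receptors, or to GAGGAAG, a core bound by the myeloid factor PU.1, on either strand. The windows are chr2:128698665-128698964 on the plus strand for Mertk, chr6:124304401-124304700 on the plus strand for Cd163, chr17:35176003-35176302 on the minus strand for Aif1 and chr7:25788684-25788983 on the minus strand for Axl.
Mertk: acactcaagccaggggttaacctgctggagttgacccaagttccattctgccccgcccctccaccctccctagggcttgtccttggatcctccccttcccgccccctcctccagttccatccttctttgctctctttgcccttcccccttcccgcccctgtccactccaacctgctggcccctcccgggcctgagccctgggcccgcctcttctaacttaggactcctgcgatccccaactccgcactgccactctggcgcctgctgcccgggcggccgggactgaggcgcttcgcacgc
Cd163: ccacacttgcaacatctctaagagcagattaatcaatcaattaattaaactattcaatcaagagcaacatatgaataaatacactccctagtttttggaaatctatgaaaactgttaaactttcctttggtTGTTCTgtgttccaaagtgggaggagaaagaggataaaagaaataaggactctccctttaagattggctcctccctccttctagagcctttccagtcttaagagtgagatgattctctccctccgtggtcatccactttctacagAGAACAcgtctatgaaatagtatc
Aif1: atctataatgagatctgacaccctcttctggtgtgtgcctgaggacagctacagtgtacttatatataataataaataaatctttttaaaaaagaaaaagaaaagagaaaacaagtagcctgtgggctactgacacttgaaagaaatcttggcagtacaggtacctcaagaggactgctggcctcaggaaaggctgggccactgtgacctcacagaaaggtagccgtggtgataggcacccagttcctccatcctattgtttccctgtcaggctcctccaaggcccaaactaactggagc
Axl: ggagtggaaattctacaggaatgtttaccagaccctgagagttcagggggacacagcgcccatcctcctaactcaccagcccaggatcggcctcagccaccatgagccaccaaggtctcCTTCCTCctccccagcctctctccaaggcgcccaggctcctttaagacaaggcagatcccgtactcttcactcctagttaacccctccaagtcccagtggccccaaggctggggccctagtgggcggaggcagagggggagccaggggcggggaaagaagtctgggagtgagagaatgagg

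The Mertk and Axl windows were rich in G and C (66.0% and 60.3%, against a median of 52.7% over all 32851 promoter windows of this length). The Cd163 and Aif1 windows were poorer (38.0% and 45.0%). The dinucleotide CG occurred 14 times in the Mertk window, 6 times in that of Axl, 2 times in that of Cd163 and 1 time in that of Aif1, against a median of 7. AGAACA occurred 2 times in the Cd163 window and in none of the other 3, and 19.0% of all windows held it. GAGGAAG occurred 1 time, in the Axl window, and 13.6% of all windows held it. TATAAA, the TATA box, was in none of the 4 and in 13.6% of all windows. The motifs do not overlap each other, and a match is a run of letters, not a shown binding site.

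All 15 values of the 5 spots lay above 0. The engulfment receptor Mertk had log2 ratios of 0.302, 0.421 and 0.256 on T1, T2 and T3. Its 3 values thus lay close together, with T2 highest and T3 lowest. The mean was 0.33 ± 0.09 (SD, n = 3), a 1.25-fold ratio of testosterone to placebo with an unadjusted 95% interval of 1.07 to 1.47. This and the following intervals are those of limma, which moderates the variance of each gene by that of all genes. They do not follow from the printed SD alone.

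The hemoglobin scavenger receptor Cd163 had 0.462, 0.403 and 0.125 on T1, T2 and T3. T1 and T2 were alike and T3 was lower by more than the distance between them. The mean was 0.33 ± 0.18 (n = 3), a 1.26-fold ratio with an interval of 1.06 to 1.497.

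The actin-bundling protein Aif1 was spotted in duplicate from the same accession. Its first spot had 0.190, 0.172 and 0.378 on T1, T2 and T3, and its second had 0.170, 0.256 and 0.354. On both spots T3 was the highest array, the opposite of its place for Cd163. Averaged over the spots, the gene had 0.180, 0.214 and 0.366 on these arrays, a mean of 0.25 ± 0.10 (n = 3) and a 1.19-fold ratio with an interval of 1.02 to 1.40.

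The second TAM receptor, Axl, had 0.197, 0.003 and 0.164 on T1, T2 and T3. T2 was at 0, where Mertk had its highest value. The mean was 0.12 ± 0.10 (n = 3), a 1.09-fold ratio whose interval, 0.93 to 1.28, includes no change.

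**Figure D1:**
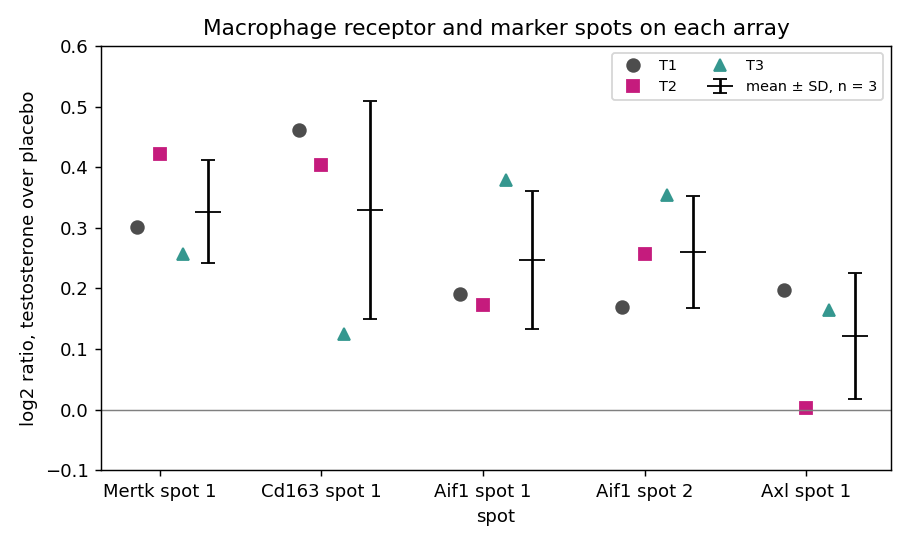
Log2 ratio of testosterone to placebo (vertical axis) for each of the 5 spots (horizontal axis) on arrays T1 (circles), T2 (squares) and T3 (triangles), with the mean ± SD of the 3 arrays in black. All 15 points lie above the line at 0, the lowest being Axl on T2 at 0.003 and the highest Cd163 on T1 at 0.462.

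None of the 4 genes passed limma's test against 0 after Benjamini-Hochberg adjustment over the 3462 genes at a threshold of 0.05. The adjusted p was 0.0889 for Mertk, 0.109 for Cd163, 0.153 for Aif1 and 0.451 for Axl. At that threshold 4.91% of all genes passed, and 1.68% passed as higher with testosterone (58 genes, against 112 lower). This split depends on centring: it was 8 higher and 53 lower with arrays centred on their medians, and 165 and 132 when they were also scaled to a common spread. In the fit of single spots, 0 of the 5 passed, with adjusted p of 0.0916 for Mertk, 0.106 for Cd163, 0.175 and 0.153 for the Aif1 spots and 0.483 for Axl, against 2.83% of all spots. An unadjusted p under 0.05 was reached by 3 of the 4 genes, all but Axl, and by 28.1% of all genes. Genes that passed as higher had a mean of at least 0.42, a 1.34-fold ratio, which is above the mean of every one of the 4.

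The 4 genes nevertheless sat on the upper side of each array. All of them were above 0 on all 3 arrays, as were 18.1% of genes, and all 5 spots, as were 23.9% of spots. This direction was known when the genes were chosen, and it is given as a description. The arrays were not centred on 0 for genes: their medians were -0.038, -0.116 and -0.055 on T1, T2 and T3, and 37.6% of gene means were above 0. Against all genes, Mertk stood at percentiles of 89.6, 88.9 and 87.0 on T1, T2 and T3. The percentiles of Cd163 were 96.9, 88.4 and 76.0, those of Aif1 79.4, 79.3 and 92.2, and those of Axl 81.2, 63.6 and 80.6. Mertk therefore held nearly the same place on the 3 arrays, although T2 had a wider spread of values than the others (SD over genes 0.444, against 0.313 on T1 and 0.306 on T3). By the mean of the arrays Cd163 and Mertk both stood at about the 91st percentile (91.2 and 91.0), Aif1 at 87.4 and Axl at 77.6.

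**Figure D2:**
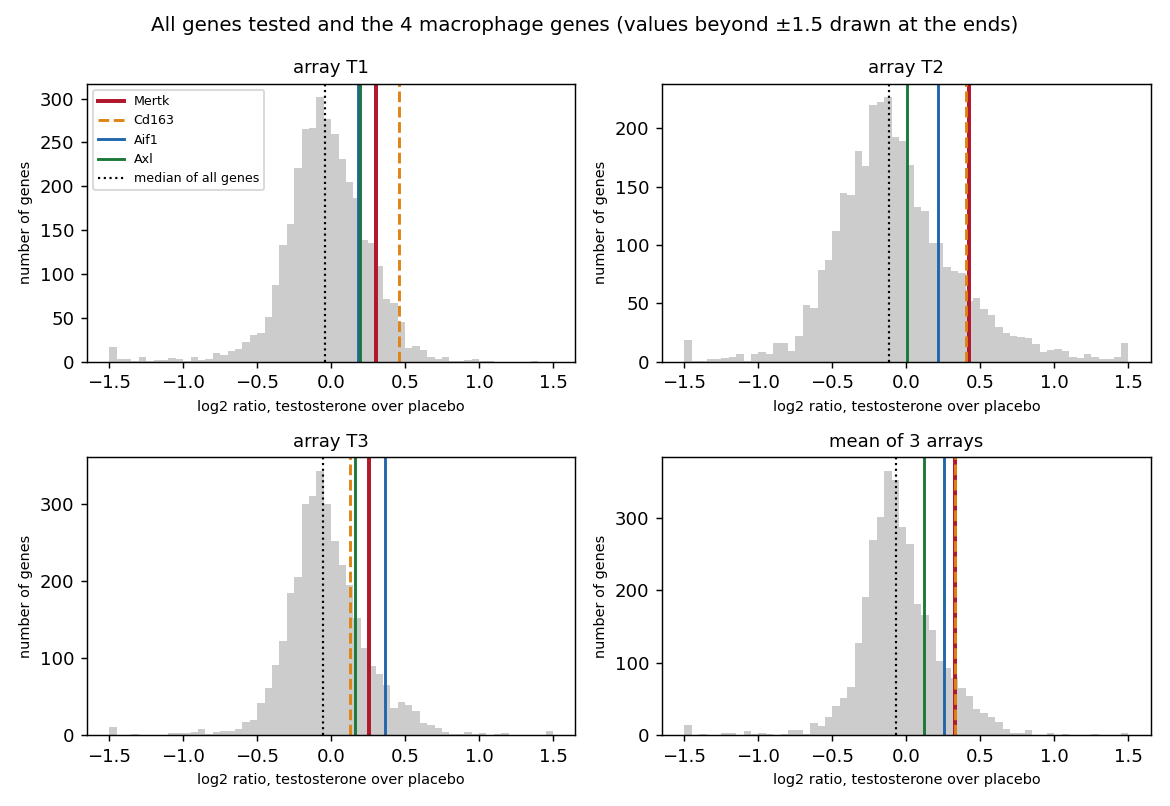
Number of genes (vertical axis) by log2 ratio of testosterone to placebo (horizontal axis) on T1, T2, T3 and for the mean of the 3 arrays, over 3462 genes. Coloured lines mark Mertk, Cd163 (dashed), Aif1 and Axl and the dotted line the median of all genes, and each coloured line lies to the right of it.

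The spread over arrays was small for 3 of the genes. The SD over arrays of Mertk was at the 17.6th percentile of all genes, that of Aif1 at the 22.2nd and that of Axl at the 24.3rd, while that of Cd163 was at the 54.2nd. The median SD over all genes was 0.167. The Aif1 duplicates differed by 0.020, 0.084 and 0.024 on T1, T2 and T3. Over the 380 combinations of gene and accession with exactly 2 tested spots, the median difference was 0.068, 0.123 and 0.110 on these arrays. Averaged over arrays, the Aif1 spots differed by 0.013, against a median of 0.073.

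**Figure D3:**
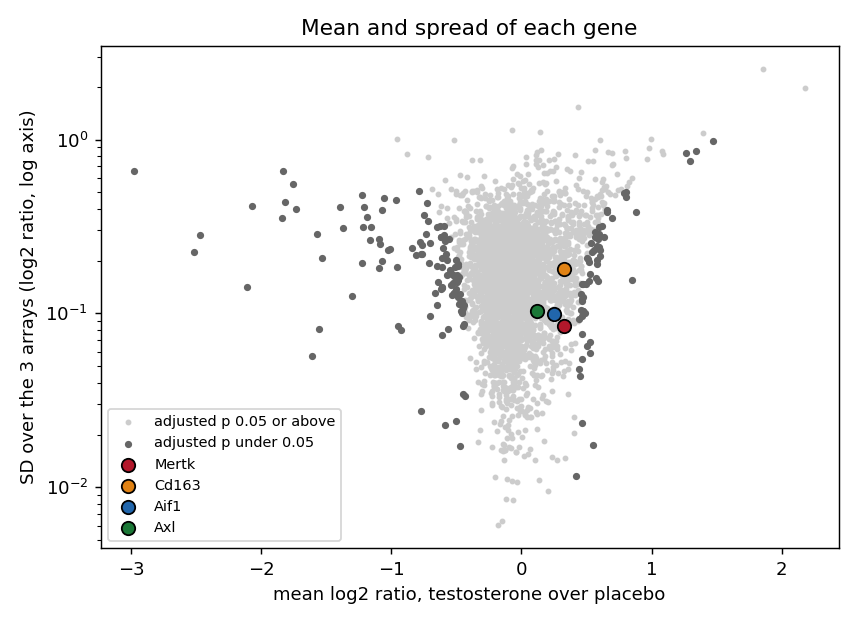
Mean log2 ratio of testosterone to placebo (horizontal axis) against the SD over the 3 arrays (vertical log axis) for 3462 genes, dark where the adjusted p was under 0.05. The 4 coloured points lie between means of 0.12 and 0.33, inside the pale cloud of genes that did not pass.

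The order of the means was Cd163, Mertk, Aif1 and Axl, but 3 arrays cannot show a difference between neighbours, since the exact sign-flip permutation test allows no two-sided p under 0.25. Mertk minus Cd163 was -0.0037 ± 0.15, Mertk minus Aif1 0.073 ± 0.16, Cd163 minus Aif1 0.077 ± 0.28 and Aif1 minus Axl 0.13 ± 0.13 (n = 3). The widest gaps were those of Mertk and of Cd163 over Axl. Cd163 minus Axl was 0.21 ± 0.22, with 0.265 and 0.40 on T1 and T2 but -0.039 on T3. The 2 TAM receptors differed by 0.21 ± 0.18, Mertk being above Axl by 0.105, 0.418 and 0.092 on T1, T2 and T3. This was the one pair of the 6 with the same sign on all arrays, and by the exact two-sided sign-flip permutation test its p was 0.25, that smallest value (0.75 after adjustment over the 6 pairs).

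Turning the sign of T2 must lower any mean whose T2 value is above 0. It lowered those of Mertk, Cd163 and Aif1, and left that of Axl, with 0.003 on T2, nearly unchanged. With T2 turned, which would be right if all ratios had been deposited as Cy5 over Cy3, the mean of Mertk was 0.046, that of Cd163 0.061, that of Aif1 0.11 and that of Axl 0.12. Axl was then highest, followed by Aif1, Cd163 and Mertk. All 4 adjusted p by limma were 0.999, and 0 of all 3462 genes passed in that setting. Turning 1 of 3 values of like sign also widens the spread, so these p say little about the 4 genes. The correlations between arrays over the 6039 spots were positive with T2 as deposited (Pearson r 0.42 for T1 and T2, 0.49 for T1 and T3 and 0.73 for T2 and T3), and its sign was kept for that reason. On T1 and T3 alone, which share their dyes, the means were 0.28 for Mertk, 0.29 for Cd163, 0.27 for Aif1 and 0.18 for Axl (adjusted p from 0.293 to 0.424). A dye effect common to both arrays would remain in these values. With a dye term fitted over all 3 arrays, the means were 0.35 for Mertk, 0.35 for Cd163, 0.24 for Aif1 and 0.092 for Axl (adjusted p from 0.0652 to 0.506 by limma).

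**Figure D4:**
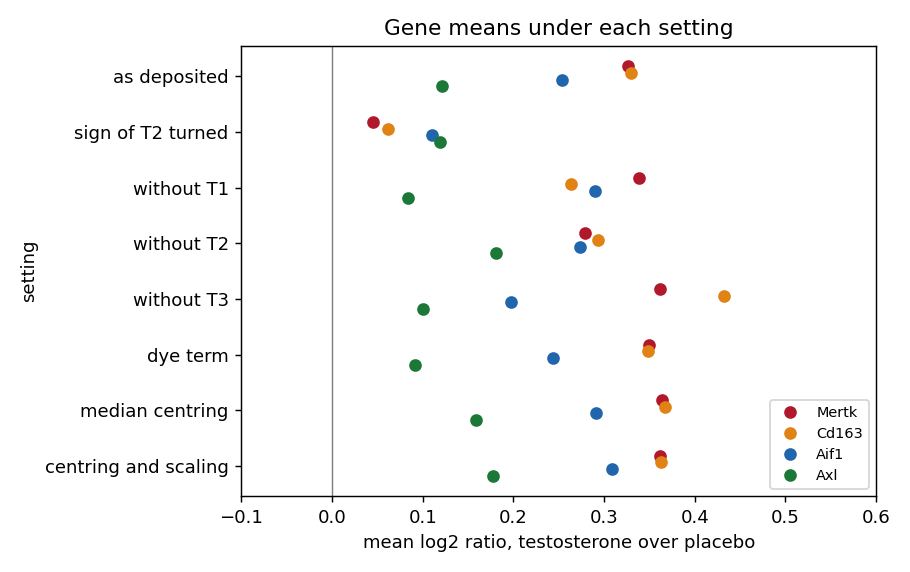
Mean log2 ratio of testosterone to placebo (horizontal axis) of the 4 genes under each setting (vertical axis). Since every value as deposited was above 0, only the setting with T2 turned could have placed a mean below 0, and with the sign of T2 turned the 4 means lie between 0.046 and 0.12, Axl being highest.

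The general macrophage markers that could be tested did not share the sign of the 4 genes on every array. Of 23 markers listed, 5 were tested and 0 passed in either direction. A mean above 0 was found for 3 (60.0%, against 37.6% of all genes), and none was above 0 on all arrays. A further 2, with values on 2 arrays each, were above 0 on both: the mannose receptor Mrc1 (0.182 on T1 and 0.138 on T2) and the transcription factor Spic (0.814 on T2 and 0.525 on T3). The median of the 5 tested was 0.11, by array 0.36, -0.13 and 0.0030 for T1, T2 and T3, against -0.071 over all genes. Adgre1, the F4/80 antigen that defines mouse macrophages, had 0.12, -0.247 and 0.003 on T1, T2 and T3 (mean -0.04 ± 0.19, n = 3). Lyz2, the lysozyme of macrophages and granulocytes, had 0.576, -0.535 and -0.116 (-0.03 ± 0.56). The pore-forming protein Mpeg1 had 0.18 ± 0.27, the integrin Itgam 0.33 ± 0.42 and the adhesion molecule Vcam1, carried by macrophages of erythroblastic islands and by stroma, 0.11 ± 0.12. On T2, where the 4 genes ran from 0.003 (Axl) to 0.421 (Mertk), Adgre1, Lyz2 and Mpeg1 lay below 0, and Itgam (0.29), Vcam1 (0.23), Mrc1 and Spic above it.

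Among genes of apoptotic cell clearance, 15 of 55 listed were tested and 0 passed. Of these 15, 5 had a mean above 0 (33.3%, against 37.6% of all genes). The median was -0.10, close to the -0.071 of all genes, and 0.10 with T2 turned. Lrp1, which takes up apoptotic cells and hemopexin complexes, was positive on all arrays like the 4 genes (0.093, 0.086 and 0.161 on T1, T2 and T3; mean 0.11 ± 0.04, adjusted p = 0.462 by limma). Rab14, a small GTPase of phagosomes, was positive on all of them as well (0.276, 0.374 and 0.162; 0.27 ± 0.11, adjusted p = 0.134). Bridging proteins and their partners were mixed: Mfge8, which links phosphatidylserine to integrins, had -0.19 ± 0.24, its integrin subunit Itgb5 -0.11 ± 0.26, and thrombospondin Thbs1 0.29 ± 0.41, negative on T2 alone (0.195, -0.064 and 0.740). Of the engulfment machinery, the guanine nucleotide exchange factor Dock2 had -0.43 ± 0.39 (adjusted p = 0.116), its target Rac1 -0.19 ± 0.14 and the phagosome GTPase Rab7 -0.17 ± 0.27. The eat-me signal calreticulin, Calr, had -0.11 ± 0.14 and the don't-eat-me signal Cd47 -0.06 ± 0.26. The remaining members were the annexins Anxa1 (0.17 ± 0.57) and Anxa5 (-0.10 ± 0.24), the lysosomal protease Ctsd (0.10 ± 0.11), the lipid exporter Abca1 (-0.01 ± 0.17) and Adam17 (-0.24 ± 0.27), the protease that sheds Mertk.

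Signalling partners and negative regulators of the TAM receptors had mostly negative means. Of 25 listed, 8 were tested, 0 passed and 7 had a mean below 0 (12.5% above it, against 37.6% of all genes). The median was -0.16, by array -0.0665, -0.38 and -0.031 on T1, T2 and T3. It was 0.073 with T2 turned and -0.042 without T2. The kinase Akt1 had -0.56 ± 0.33 (adjusted p = 0.0555 by limma), and was negative on T1, T2 and T3 (-0.336, -0.94 and -0.40). The exchange factor Vav1 had -0.28 ± 0.20 (adjusted p = 0.158).

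Genes of hemoglobin and iron handling, the pathway of Cd163, had 9 of 28 members tested, of which 0 passed. Of these 9, 6 had a mean above 0 (66.7%, against 37.6% of all genes), and the median was 0.055. Ferritin light chain, Ftl1, was positive on all arrays (0.185, 0.148 and 0.516; 0.28 ± 0.20, adjusted p = 0.156 by limma), and so was Aco1, the iron-regulatory aconitase (0.132, 0.304 and 0.20; 0.21 ± 0.09, adjusted p = 0.203). The third member positive on all arrays was Lrp1, given above. The heme transporter of lysosomes, Slc48a1, had 0.05 ± 0.08, the heme-sensing repressor Bach1 0.15 ± 0.35 and its partner Mafg -0.12 ± 0.37. Biliverdin reductase, Blvra, had -0.03 ± 0.21, the oxidative stress factor Nfe2l2 0.01 ± 0.10 and the transferrin receptor Tfrc -0.14 ± 0.17. No gene of the list of other scavenger receptors had a value on all 3 arrays. Of these, Mrc1 is given above, the oxidised lipoprotein receptor Olr1 had 0.427 on T1 and 0.092 on T3, and the phosphatidylserine receptor Stab1 0.096 on T2.

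Genes of phagocyte actin and calcium, among which Aif1 acts, had 18 of 34 members tested, of which 0 passed. A mean below 0 was found for 15, and one above 0 for 3 (Evl, Wasf2 and Pfn1). The share above 0 was 16.7%, against 37.6% of all genes. The median was -0.16, by array 0.042, -0.29 and -0.20, and 0.030 with T2 turned. Arpc4, a subunit of the actin-nucleating Arp2/3 complex, had -0.48 ± 0.26 (adjusted p = 0.0621 by limma) and the membrane-cytoskeleton linker Msn -0.36 ± 0.21 (adjusted p = 0.0967).

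**Figure D5:**
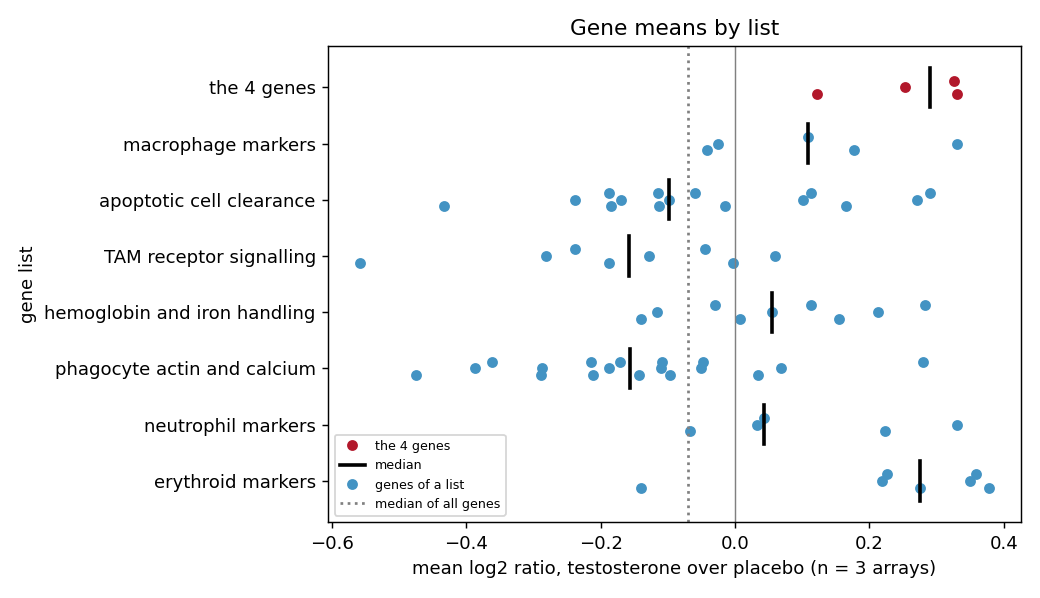
Mean log2 ratio of testosterone to placebo over 3 arrays (horizontal axis) of each tested gene, by list (vertical axis), with the median of each list as a black bar and the median of all genes as a dotted line. The 4 genes, chosen with their direction known, have a median of 0.29. The medians of macrophage markers, clearance genes and actin genes are 0.11, -0.10 and -0.16. That of erythroid markers is 0.28, by array 0.096, 0.38 and 0.35 on T1, T2 and T3. The medians of the 4 genes on these arrays are 0.25, 0.31 and 0.21.

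Markers of other cells in the same extract also differed between testosterone and placebo mice, and their part in the ratios of the 4 genes was not tested. Of 8 B-lineage genes 7 passed as lower, as did 112 of all 3462 genes, and the median of the 8 was -2.09. The 7 were Vpreb3, Fcrla, Bach2, Cd79b, Pou2af1, Il7r and Blk, with means from -2.98 to -1.56 (adjusted p from 7.7e-05 to 0.00374 by limma). Ms4a1 had -0.25 ± 0.37. Erythroid markers had 6 of 7 means above 0 (85.7%, against 37.6% of all genes), with 0 passed. Their median was 0.28, by array 0.096, 0.38 and 0.35, and it was -0.029 with T2 turned. Hbb-b1, a beta-globin, had 0.35 ± 0.23 and the ferrochelatase Fech 0.36 ± 0.26. The 5 neutrophil markers had medians by array of 0.60, 0.11 and -0.15, led by Itgam and the collagenase Mmp8 (0.22 ± 0.33). The 5 osteoclast genes had a median of 0.11, with Clcn7, a lysosomal chloride transporter, at 0.37 ± 0.12 and the protease Mmp14 at 0.14 ± 0.19. In the list of 12 genes of stroma and osteoblasts, where Axl can also be expressed, 9 means were below 0 and the median was -0.14. The other 3 were above 0 (25.0%, against 37.6% of all genes). Of the 12, 2 passed as higher, against 1.68% of all genes. These were Angptl1 (0.85 ± 0.16, adjusted p = 0.00521 by limma) and Grem1 (0.88 ± 0.38, adjusted p = 0.0245). Ebf3 had 0.46 ± 0.19 and Sparc -0.50 ± 0.50. None of these 9 B-lineage and stromal calls remained with T2 turned (adjusted p = 0.999 for each by limma), where 0 of all 3462 genes passed. Turning 1 of 3 values of like sign shrinks a mean and widens its spread, so that setting says little about these 9 genes. Without T2 those of Il7r (adjusted p = 0.0611), Angptl1 (0.0555) and Grem1 (0.198) were lost, and without T3 those of Angptl1 (0.102) and Grem1 (0.243). The 3 endothelial genes had a median of -0.033 (Kdr -0.25 ± 0.26, Tie1 -0.03 ± 0.12), the 3 megakaryocyte genes -0.13 (Itga2b -0.44 ± 0.19, Pf4 -0.13 ± 0.16) and the 5 muscle genes -0.42 (Mylpf -0.69 ± 0.52, Ckm -0.72 ± 0.79), with 0 passed in each. No gene of the lists for T and natural killer cells, dendritic cells or mast cells and basophils had a value on all arrays.

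The genes whose 3 values lay nearest to those of each member were found by Euclidean distance over the 3 arrays, as a description of likeness only. Mertk was nearest to Rpl27a-ps2, a ribosomal protein pseudogene (distance 0.064), and to Agtrap, a protein that binds the angiotensin receptor (0.066), with 113 genes closer than 0.2. Cd163 was nearest to Tgoln1, a trans-Golgi protein (0.056), and the zinc finger gene Zfp53 (0.065), with 61 genes closer than 0.2. Aif1 was nearest to Gatc (0.019) and Bloc1s6, a subunit of a complex for lysosome-related organelles (0.043), with 89 genes closer than 0.2. Axl was nearest to Bambi, a pseudoreceptor of the TGF-beta family (0.024), and Pabpc4, a poly(A)-binding protein (0.028), with 158 genes closer than 0.2. The 4 genes were not each other's nearest: from Mertk, Cd163 ranked at place 125 (distance 0.21), Aif1 at 222 (0.26) and Axl at 569 (0.44).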

How the data were processed

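The authors deposited 1 signed log ratio per spot and array, read as log2 from its range. A natural log is possible and would make the folds larger. Scanner, background correction, scaling and direction were not given in the sources used here, spot brightness was not analysed, and 3 arrays limit the precision. Values were used as deposited. Genes were named from spots with exactly 1 annotated gene, updated by Entrez ID to RefSeq symbols (7880 of 8050 spots matched), and 66 control or non-mouse spots were left out, 12 of them with values on all arrays.

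All 6039 spots with 3 values were fitted against 0 by limma's moderated test (limma 3.58.1 under R 4.3.3; functions lmFit and eBayes; two-sided), with Benjamini-Hochberg adjustment at 0.05. The same was done for 3462 genes, averaging spots per array. The procedure was tested on simulated data. The p-values and intervals of limma measure the spread between the 3 mouse pairs, with each variance moderated by that of all spots or genes. Pairs of members were compared by an exact sign-flip permutation test.

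Members and gene lists were chosen with earlier results of these data known. No set test was run, and lists are given by counts and medians. Named are the members, every tested gene of the clearance, hemoglobin and macrophage lists, in other lists each gene that passed and the 2 others of smallest p, and the 2 genes nearest to each member. Alternatives were T2 turned, each array left out, a dye term, median centring with and without scaling, robust eBayes, values on at least 2 arrays, a threshold of 0.10 and medians over spots.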

Additional observations from a re-analysis of the deposited data

How the results depend on the processing

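All values of the 4 genes were above 0, so of the 11 alternatives T2 turned alone could have given a mean below 0, and it did not. The means ranged from 0.046 to 0.36 for Mertk, 0.061 to 0.43 for Cd163, 0.11 to 0.31 for Aif1 and 0.084 to 0.18 for Axl. The 1 call among them was Mertk at a threshold of 0.10 (mean 0.33, adjusted p = 0.0889 by limma), which 498 of all 3462 genes passed. In the spot fit, Mertk passed 0.05 with centring and scaling (0.36, adjusted p = 0.0495 by limma), as did 816 of all 6039 spots. Leaving out 1 array moved the mean of Cd163 between 0.26 (without T1) and 0.43 (without T3), and that of Axl between 0.084 (without T1) and 0.18 (without T2).

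The number of spots called, 171, was 0 with T2 turned (20 at an unadjusted p under 0.05), 1309 with a dye term, 57 after median centring, 816 with centring and scaling, 1165 at 0.10, and 38 to 1095 without 1 array. The number of genes called, 170, was 0 with T2 turned (19 unadjusted), 385, 61, 297 and 498 in the same order, and 33 to 623 without 1 array. The share called higher, 39.8% of spots, was 7.02% after median centring and 72.9% with scaling. The corresponding shares of genes were 34.1%, 13.1% and 55.6%. The cause was not tested.

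Of 78 list medians under an alternative, 8 moved by more than their spread over arrays, 7 of them with T2 turned. Those 7 were then 0.10 for clearance, 0.073 for TAM signalling, 0.030 for actin, -0.62 for B-lineage and -0.029 for erythroid genes. For stromal and muscle genes they were 0.11 and 0.13. The remaining move was that of stromal genes without T2, to 0.065. In settings added after the data were seen, 5 of the 6 differences between members changed sign with T2 turned: Mertk minus Axl was -0.074, Mertk minus Aif1 -0.065, Cd163 minus Axl -0.058, Cd163 minus Aif1 -0.049 and Aif1 minus Axl -0.0087. Each array holds 1 pair, so no fit without pairing exists.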

Other observations

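Spic, a transcription factor that iron-recycling macrophages of spleen and bone marrow require, had no value on T1 and log2 ratios of 0.814 on T2 and 0.525 on T3, both above those of Mertk, Cd163, Aif1 and Axl on the same arrays. In the fit of 4054 genes with values on at least 2 arrays its mean was 0.67 (adjusted p = 0.0494 by limma). In that fit 154 of the 4054 genes passed 0.05. The ferroxidase Cp, which helps cells release iron, likewise had values on T2 (0.592) and T3 (0.522) only, with a mean of 0.56 (adjusted p = 0.0562). Both were in the list of hemoglobin and iron genes, Spic also in that of macrophage markers, and they were picked out here after their values were seen. Neither was fitted with T2 turned, where the T2 value of each would be negative and its T3 value positive. Vcam1, which Spic controls in spleen macrophages, had -0.019 on T1, 0.230 on T2 and 0.115 on T3.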
